A study of Mus musculus with 23 samples.

Results

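The genes described are 10 genes of fatty acid synthesis and its control, Fasn, Acaca, Acacb, Acly, Scd1, Elovl6, Me1, Thrsp, Srebf1 and Mlxipl. They were taken by symbol from a table of 48897 rows, where each was found once, and all 10 passed the filter on low counts in every comparison. RNA was sequenced from 3 groups of male BALB/c mice. The control livers came from 5 sham-operated mice that received serum-free RPMI medium and bore no tumor. The pre-metastatic livers and the primary tumors came from the same 9 mice, injected in the cecal serosa with CT26 cells, a colon carcinoma line of BALB/c origin. The tumors therefore all derive from one cell line, and the animals, aged 4 to 6 weeks at the start, were killed 3 weeks after injection. The hour of killing and the feeding state are not given in the sources used here.

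De novo lipogenesis turns sugar carbon into fat, and the liver is one of its main sites. ATP citrate lyase (Acly) splits citrate into cytosolic acetyl-CoA, acetyl-CoA carboxylase 1 (Acaca) carboxylates it to malonyl-CoA, and fatty acid synthase (Fasn) builds palmitate with NADPH that malic enzyme (Me1) helps to supply. Elovl6 lengthens palmitate and Scd1 desaturates the product, while the second carboxylase (Acacb) sits at the mitochondrion, where its malonyl-CoA holds back fatty acid import. SREBP-1, encoded by Srebf1 and raised by insulin, and ChREBP, encoded by Mlxipl and activated by glucose metabolites, switch on these genes, and Thrsp (Spot 14) is a nuclear protein that follows them and thyroid hormone.

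The promoters of 3 members that rose in the livers of tumor-bearing mice are shown because each carries letters that regulators of this pathway are known to read. They are the 250 bases before a RefSeq start of Fasn, Thrsp and Srebf1, 5′ to 3′ on the gene's strand, in build GRCm38.p6. Fasn lies at chr11:120824548-120824797, Thrsp at chr7:97417551-97417800, and the Srebf1 start shown, 1 of 3 listed, at chr11:60210472-60210721, all on the minus strand. Capitals mark the CCAAT box, written as CCAAT or as its complement ATTGG, which the factor NF-Y binds, and the stretch AGTAACCCC.
Fasn: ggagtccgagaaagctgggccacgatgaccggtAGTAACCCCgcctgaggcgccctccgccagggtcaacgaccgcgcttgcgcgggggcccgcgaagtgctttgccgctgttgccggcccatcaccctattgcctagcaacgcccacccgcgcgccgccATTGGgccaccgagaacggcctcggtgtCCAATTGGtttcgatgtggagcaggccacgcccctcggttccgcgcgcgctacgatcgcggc
Thrsp: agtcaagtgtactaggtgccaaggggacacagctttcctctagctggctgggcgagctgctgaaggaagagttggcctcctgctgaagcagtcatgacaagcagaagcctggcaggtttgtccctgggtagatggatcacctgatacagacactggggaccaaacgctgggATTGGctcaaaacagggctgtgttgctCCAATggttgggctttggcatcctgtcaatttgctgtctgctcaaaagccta
Srebf1: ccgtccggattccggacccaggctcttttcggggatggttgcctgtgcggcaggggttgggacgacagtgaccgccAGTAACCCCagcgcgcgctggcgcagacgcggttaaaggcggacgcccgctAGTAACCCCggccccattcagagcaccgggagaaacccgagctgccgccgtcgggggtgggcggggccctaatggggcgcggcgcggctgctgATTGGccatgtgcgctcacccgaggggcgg

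Searching both strands, CCAAT was found 3 times in the Fasn window, 2 times in that of Thrsp and 1 time in that of Srebf1. In Fasn 2 of the 3 matches overlap, since CCAAT at 62 to 58 bases before the start runs into its complement at 59 to 55. Of the 13 windows of the 9 members with an entry, 7 carried the box, and 33.8% of the 32851 windows in the table hold it. The box was absent from the windows of Acaca, Acly and Elovl6, which also rose in those livers. It was present in the Acacb window and in 1 Me1 window, and neither of these genes was among those that rose. Some of the 13 windows lie inside the span of the counted gene and not at its 5′ end. This holds for the only windows of Acaca and Acacb, for a window each of Me1 and Mlxipl, and for the Srebf1 window shown. It also holds for the Srebf1 window at chr11:60220628-60220877, and that at chr11:60222582-60222831 lies partly inside the span. AGTAACCCC was chosen after the sequences were seen. It occurred in the Fasn window, 217 to 209 bases before the start, and 2 times in the Srebf1 window, at 174 to 166 and 123 to 115 bases, and 0.122% of all windows hold it. The GC box GGGCGG, which SP1 binds, was found in 5 of the 13 windows, those of Acly, Me1, 1 start of Mlxipl and 2 of Srebf1, and is held by 32.7% of all windows. In the Srebf1 window shown it lies at 65 to 60 and 6 to 1 bases before the start and is not capitalized. The sterol regulatory element TCACNCCAC, held by 1.05%, was found in 1 Mlxipl window at 136 to 128 bases, and the E-box CACGTG, held by 6.02%, in the other Mlxipl window at 98 to 93 bases. A match is a run of letters in these windows and was not tested as a binding site.

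Total counts per library were similar between groups, from 51064615 to 60393702 in control livers, from 44587556 to 79773163 in pre-metastatic livers and from 47005276 to 70884436 in tumors. Levels are given in RPKM, counted reads scaled to gene length and to the library's total, and fold changes come from the counts by edgeR's quasi-likelihood test with TMM scaling, called at an adjusted p (Benjamini-Hochberg over all genes tested) under 0.05. The hepatocyte markers were high in every liver, with summed levels of 41944 to 87104 RPKM, and summed to 8.69 to 343 RPKM in tumors. The 2 highest tumor sums were M10 and M12, with Alb at 86.4 and 172.8 RPKM. Of 8 intestinal markers 3 had a median of at least 1 RPKM in tumors. Krt20 was highest at a median of 59.9 RPKM, Lgals4 ran from 1.14 to 5.47 RPKM and Krt8 from 0.144 to 5.04 RPKM. Epcam, Cdx2, Vil1, Fabp2 and Cdh1 lay at or below 1.88 RPKM in every tumor. Fewer cells of a type and less RNA per cell cannot be told apart in bulk tissue.

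In the livers of tumor-bearing mice, 8 of the 10 genes rose and none fell by edgeR, and DESeq2 also called 8 higher and 0 lower; at an unadjusted p under 0.05, 0 were lower. Scd1 rose 40.0-fold, Thrsp 23.6-fold, Fasn 5.30-fold, Srebf1 4.19-fold, Acaca 3.16-fold, Elovl6 2.81-fold, Acly 2.04-fold and Mlxipl 1.45-fold, while Acacb and Me1 did not pass the test. Among all 16987 genes tested, 17.7% were called higher and 13.3% lower. The median log2 fold change was 1.58 over the 10 genes and 0.01 over all genes tested. For 7 of the 10, each of the 9 pre-metastatic livers lay above each of the 5 control livers in RPKM, as did 4.85% of the genes tested.

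**Figure D1:**
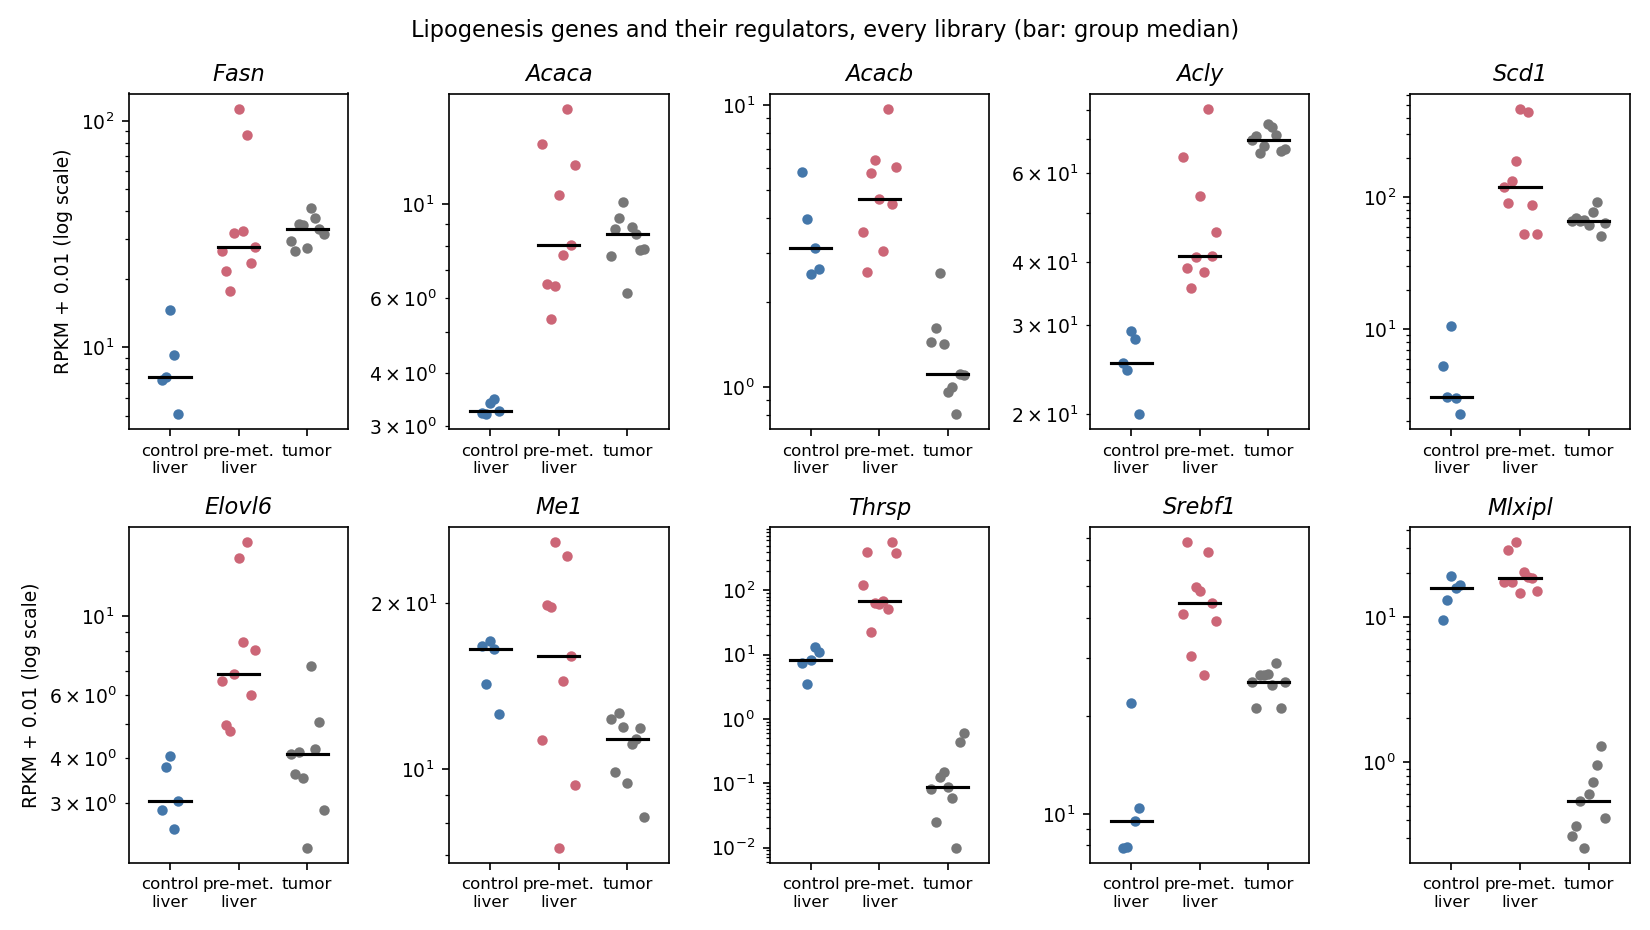
Level of each of the 10 genes in every library, as RPKM + 0.01 on a log axis (each panel has its own scale), with a point per library and a bar at the group median. Fasn, Acaca, Acly, Scd1, Elovl6, Thrsp and Srebf1 show 9 pre-metastatic livers above all 5 control livers, and Thrsp and Mlxipl lie below every liver in the 9 tumors.

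Of the regulators, Srebf1 stood at 7.87, 7.88, 21.9, 9.50 and 10.4 RPKM in control livers C1, C4, C5, C6 and C7. In pre-metastatic livers it ran from 26.7 RPKM through a median of 44.4 to 68.1 RPKM. The groups did not overlap, although control C5 stood well above its group. The log2 fold change was 2.07 (SE 0.27, adjusted p = 0.00011 by edgeR). The counts are per gene, so the SREBP-1a and SREBP-1c transcripts, which start at different sites, were summed. Rai1, on the opposite strand, overlaps the end of Srebf1, and its highest level in any library was 6.70 RPKM. Without known strand settings the reads of the shared stretch cannot be told apart.

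Mlxipl had 9.54, 13.0, 19.2, 15.9 and 16.5 RPKM in the control livers, in the same order. Its pre-metastatic values lay between 14.5 and 32.7 RPKM with a median of 18.4, and 3 of the 9 exceeded every control. The ranges overlapped, and the log2 fold change of 0.53 (SE 0.16, adjusted p = 0.023 by edgeR) was the smallest of those called. The call was lost without control C1 (adjusted p = 0.0677), without control C4 (0.0626) and with scaling to total counts (0.0993), all by edgeR, and in an exact rank-sum test on RPKM (adjusted p = 0.218). The unnamed gene ENSMUSG00000107296.1 lies on the opposite strand within Mlxipl and reached 6.99 RPKM in its highest library, so reads of any shared stretch cannot be told apart there. Thrsp, the third gene of this group, was at 7.45, 3.54, 8.36, 13.0 and 11.2 RPKM in control livers and at 22.8 to 563 RPKM, median 67.4, in pre-metastatic livers. Its groups were apart, with a log2 fold change of 4.56 (SE 0.84, adjusted p = 0.00101 by edgeR), and its highest pre-metastatic liver exceeded the lowest 24.7-fold.

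The 3 enzymes on the path to palmitate, Acly, Acaca and Fasn, all rose, and the differences between their fold changes were not tested. Acly stood at 25.3, 24.5, 29.2, 28.1 and 20.0 RPKM in control livers and at 35.6 to 80.4 RPKM, median 41.0, in pre-metastatic livers (log2 fold change 1.03, SE 0.21, adjusted p = 0.00188 by edgeR). Acaca was the steadiest control gene, at 3.21, 3.19, 3.39, 3.46 and 3.25 RPKM. It reached 5.35 to 16.8 RPKM, median 8.01, in pre-metastatic livers (log2 fold change 1.66, SE 0.28, adjusted p = 0.000545). Neither gene's groups overlapped. Gm11437, on the opposite strand within Acaca, reached 7.82 RPKM in its highest library, and the same limit on strand holds there.

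Fasn had 7.15, 7.39, 14.7, 9.24 and 5.08 RPKM in control livers, C5 again being highest. The pre-metastatic livers ran from 17.7 to 113 RPKM with a median of 27.9, and M6 and M8 stood apart at 113 and 86.5 RPKM. The log2 fold change was 2.41 (SE 0.51, adjusted p = 0.00255 by edgeR). Me1, the NADPH-supplying enzyme, showed no such pattern: control livers held 16.7, 14.3, 17.1, 16.5 and 12.6 RPKM, and pre-metastatic livers held 7.21 to 25.8 RPKM with a median of 16.0. Its pre-metastatic range enclosed the control range, and its log2 fold change was 0.13 (SE 0.22, adjusted p = 0.684).

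Scd1 had the largest change of the 10. Control livers held 5.28, 3.06, 10.5, 3.01 and 2.27 RPKM, and pre-metastatic livers held 52.5 to 469 RPKM with a median of 120 RPKM. The lowest pre-metastatic liver, M12, was still above the highest control, C5, and the log2 fold change was 5.32 (SE 0.74, adjusted p = 0.000147 by edgeR). Scd1 was ninth of the 10 genes by median level in control livers and first in pre-metastatic livers. Elovl6 went from 2.86, 3.78, 4.05, 2.52 and 3.03 RPKM to 4.77 to 16.1 RPKM, median 6.88, with no overlap (log2 fold change 1.49, SE 0.32, adjusted p = 0.00267).

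Acacb, the carboxylase of the mitochondrial surface, stood at 5.81, 3.95, 2.50, 3.11 and 2.62 RPKM in control livers. Pre-metastatic livers ran from 2.56 to 9.72 RPKM with a median of 4.64, and 3 of the 9 exceeded every control. The log2 fold change of 0.57 (SE 0.30, adjusted p = 0.163 by edgeR) missed the threshold. It passed only without control C1, the control with the highest Acacb (log2 fold change 0.86, adjusted p = 0.0474). That liver also held the most Pck1 of all 14, at 1013 RPKM (Pck1 encodes an enzyme of glucose synthesis whose transcript insulin lowers).

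**Figure D2:**
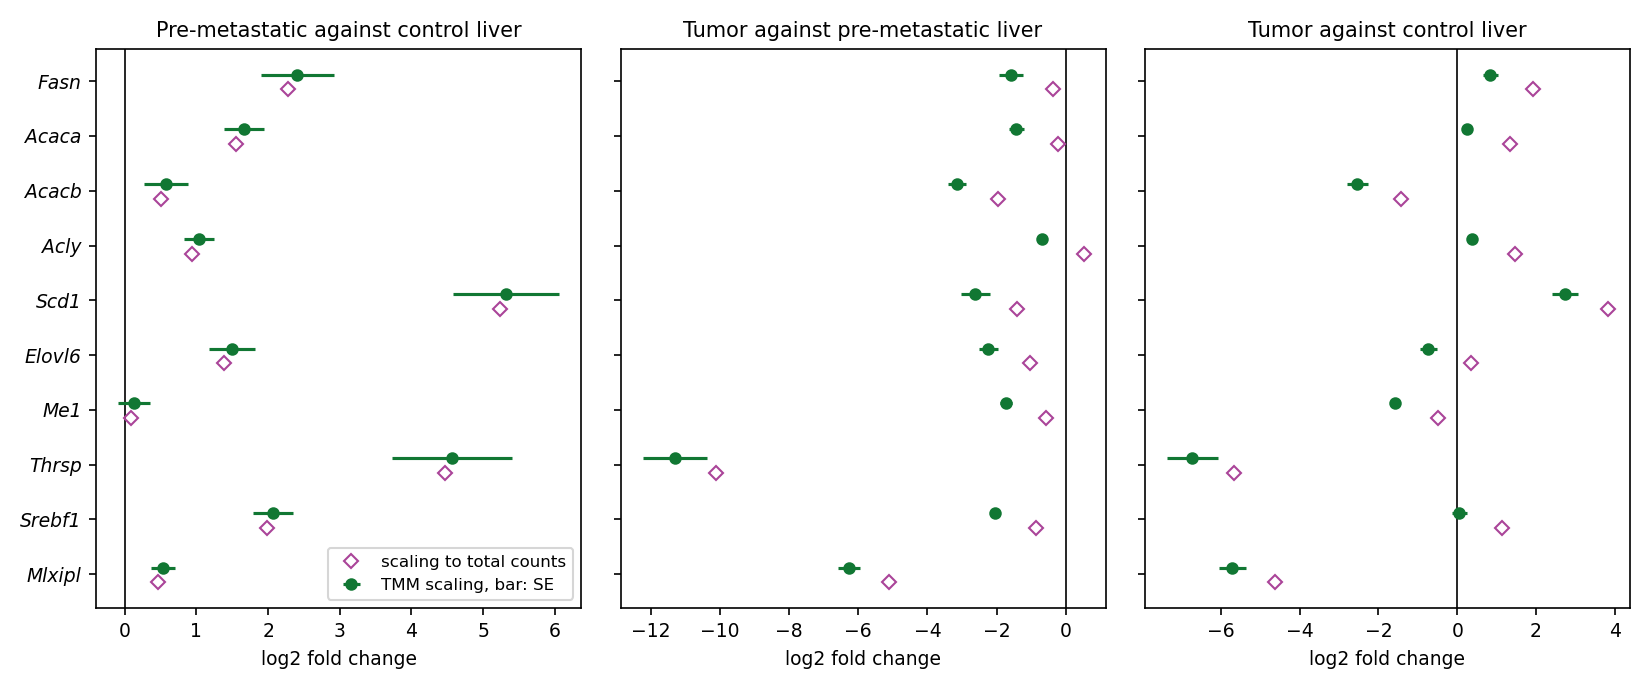
Log2 fold changes of the 10 genes in the 3 comparisons; filled circles with bars are edgeR estimates with TMM scaling and their SE, open diamonds are estimates scaled to total counts. Both scalings lie close together between the livers and shift against each other between tumor and liver, where Acly changes sign against pre-metastatic liver and Elovl6 against control liver.

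Genes with a relative of the same family allowed a comparison within each library, where library scaling cancels. These 12 differences in mean log2 ratio of RPKM were tested with exact two-sided permutation tests, adjusted together. The ratio of Acaca to Acacb rose from a median of 1.11 in control to 2.04 in pre-metastatic livers and 7.04 in tumors. The difference in mean log2 ratio between the liver groups was 0.98 (exact permutation adjusted p = 0.0155). Scd1 exceeded Scd2, a desaturase typical of other tissues, 2.25-fold at the median in control livers and 76.7-fold in pre-metastatic livers (difference in mean log2 ratio 4.80, exact permutation adjusted p = 0.000749), and in tumors the ratio was 0.775 at the median, with Scd2 above Scd1 in all 9.

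Srebf1 rose more than Srebf2, whose product favours cholesterol synthesis. Their median ratio was 1.37 in control livers, 3.14 in pre-metastatic livers and 0.738 in tumors, and the liver groups differed by 1.12 in mean log2 ratio (exact permutation adjusted p = 0.0030). Mlxipl exceeded Mlxip, its relative of other tissues, 15.9-fold at the median in control livers and 19.8-fold in pre-metastatic livers, a difference of 0.61 in mean log2 ratio (exact permutation adjusted p = 0.0104). In tumors Mlxip exceeded Mlxipl 13.0-fold at the median. Each of the 4 ratios differed between tumor and either liver group, with exact permutation adjusted p from 0.000165 to 0.0020. The tests against pre-metastatic liver did not pair the tumor and liver of a mouse. The Scd genes are similar in sequence, so reads shared between them could have been split or dropped by the counting.

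**Figure D3:**
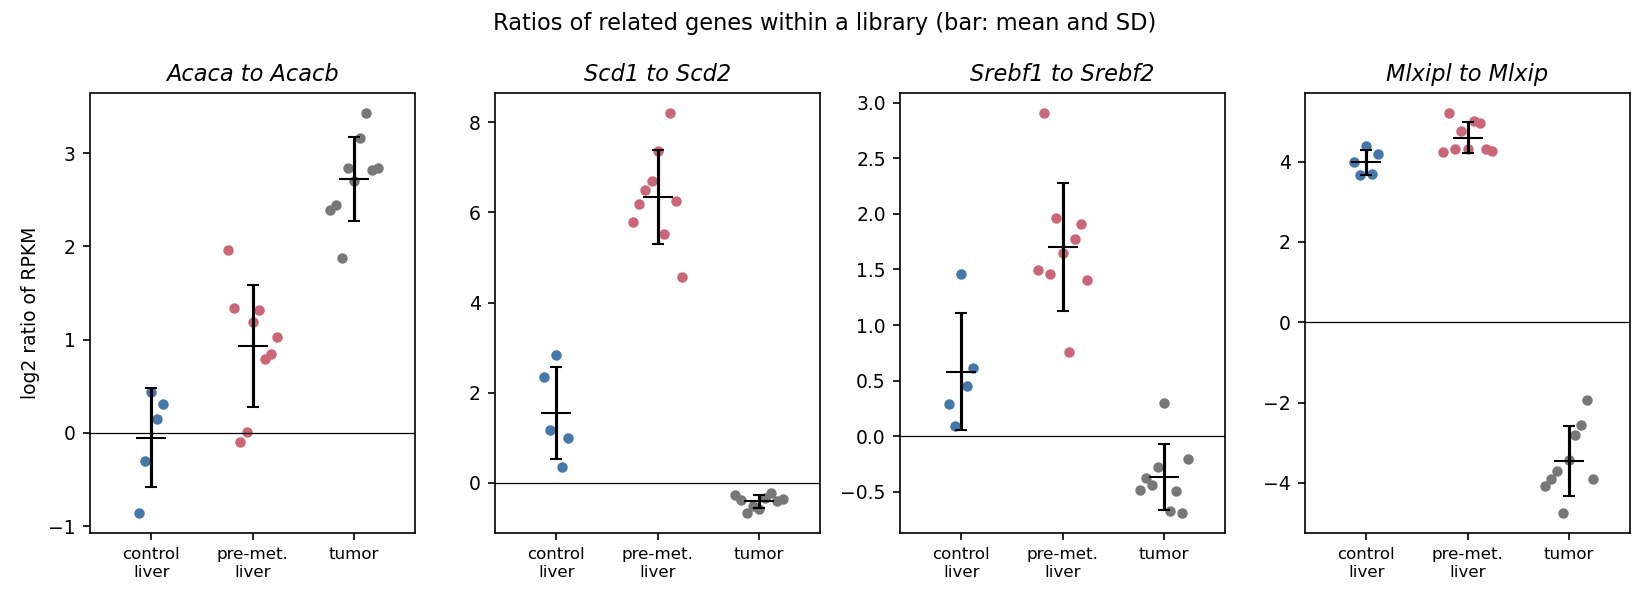
Log2 ratio of RPKM for 4 pairs of related genes in each library, with points per library and a bar for the group mean and SD; the line at 0 marks equal levels. Scd1 to Scd2 lies highest in the 9 pre-metastatic livers and below 0 in the 9 tumors, and Mlxipl to Mlxip is positive in all 14 livers and negative in all tumors.

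The livers also differed on clock genes. A clock index, in which standardized Dbp, Per3 and Ciart count as plus and standardized Arntl, Clock and Npas2 as minus, was split at its widest gap, 1.08, into 9 early and 5 late livers. The next gap, 1.07, lay on the other side of control C7, so the place of C7 is not firm. The late livers were C7, M1, M2, M10 and M12, so only 1 of 5 controls was late and phase and group are partly mixed. Among the pre-metastatic livers Thrsp was apart by phase: the 5 early livers held 22.8 to 67.4 RPKM and the 4 late livers 122 to 563 RPKM, without overlap. For Scd1 the order was the other way at the top, with 52.5 to 469 RPKM early and 52.5 to 120 RPKM late, and for Fasn it was 17.7 to 113 RPKM early and 21.8 to 27.9 RPKM late.

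Restricted to the early livers, 5 pre-metastatic against 4 control, 7 of the 10 genes were called higher. The log2 fold change of Thrsp was then 2.80 (adjusted p = 0.00134 by edgeR) in place of 4.56, those of Scd1, Fasn and Srebf1 were 5.65, 2.68 and 1.96, and that of Mlxipl was 0.58 (adjusted p = 0.058). With phase as a term in the fit of all 14 livers, the same 8 genes were called and Thrsp had a log2 fold change of 3.25 (adjusted p = 0.000461). Whether the hour of killing set these orders was not tested.

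**Figure D4:**
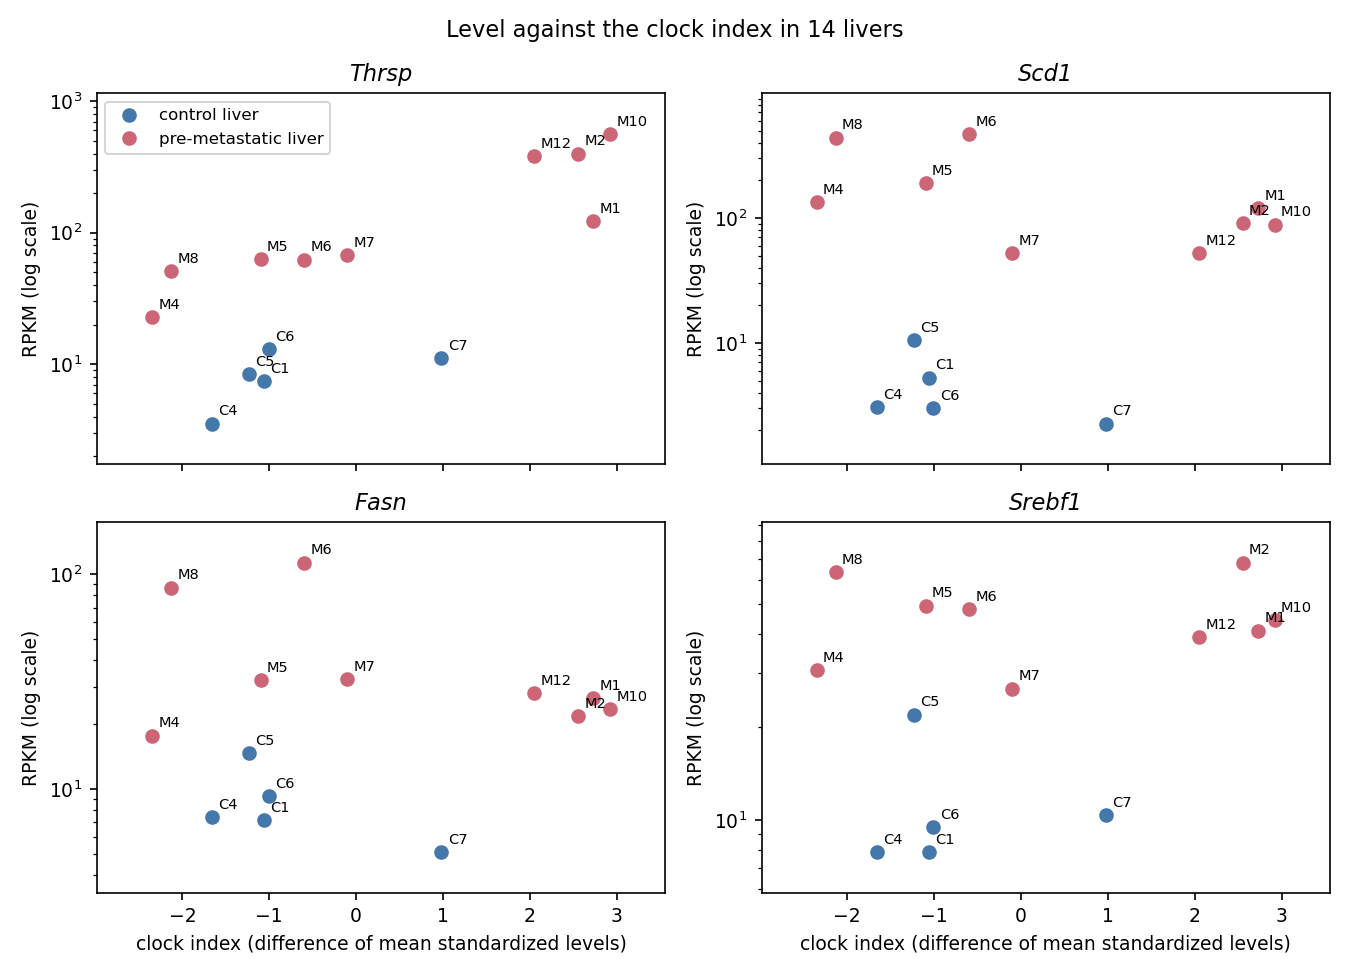
Level in RPKM (log axis) of Thrsp, Scd1, Fasn and Srebf1 against the clock index in 14 livers, labelled by mouse, with control livers in blue and pre-metastatic livers in red. Thrsp is highest in M10, M2, M12 and M1 on the right, whereas Scd1 and Fasn are highest in M6 and M8 on the left.

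The 9 pre-metastatic livers did not rank alike for every gene. M8 was highest in 4 of the 10 genes (Acaca, Acacb, Acly and Elovl6) and among the top 3 in 8. M6 was highest in Fasn and Scd1, at 113 and 469 RPKM, and lowest in Me1 and Mlxipl, at 7.21 and 14.5 RPKM. M4 was lowest in 5 genes, Fasn, Acaca, Acly, Elovl6 and Thrsp, yet 5 livers lay below it for Scd1, where it held 133 RPKM. Srebf1 was highest in M2, at 68.1 RPKM, where Fasn, at 21.8 RPKM, was above M4 alone. The neutrophil marker sum ran from 7.26 to 119 RPKM in these livers and was highest in M1, and its part in the ranks was not tested.

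**Figure D5:**
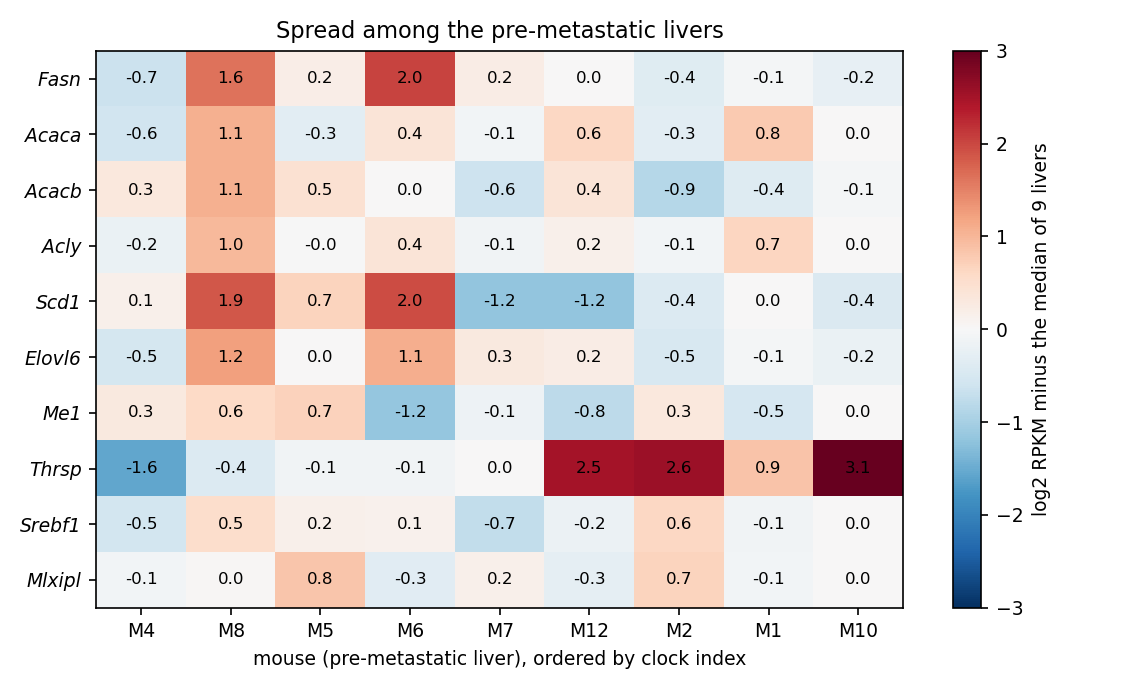
Level of each gene in each of the 9 pre-metastatic livers, as log2 RPKM minus the median of the 9, with mice ordered by clock index from left to right. M8 and M6 are high for Fasn, Scd1 and Elovl6, and Thrsp is high in the 4 mice on the right.

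Around the group means of the 14 livers, the 5 genes whose level was most like that of Fasn by Pearson's r of log2(RPKM + 1) were Mgat2 (0.93), Btg3 (0.92), Elovl6 (0.91), Slc25a44 (0.90) and Chmp7 (0.88). Elovl6 was thus the only one of the 10 genes among them, and the r of Fasn was 0.79 with Scd1, 0.70 with Acly, 0.44 with Srebf1 and -0.29 with Thrsp. Those most like Srebf1 were ENSMUSG00000053613.6 (0.83), Gm2a (0.82), Nrn1 (0.80), Tpd52l1 (0.80) and Notum (0.79), none of them one of the 10. These values describe 14 livers that differ in depth and clock phase, and carry no test.

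Of the other enzymes and carriers of fatty acid synthesis, 20 of 22 genes were tested between the livers, 7 rose, 1 fell and 12 were not called, with a median log2 fold change of 0.29. For this list and those that follow, the shares over all genes tested were 17.7% called higher and 13.3% lower. Pgd, which makes NADPH in the pentose phosphate pathway, had a log2 fold change of 0.89 (SE 0.14, adjusted p = 0.000285), and Slc25a1, the mitochondrial citrate carrier, one of 0.53 (SE 0.09, adjusted p = 0.000648). Elovl2, which lengthens polyunsaturated fatty acids, fell by 1.16 on the log2 scale (SE 0.16, adjusted p = 0.000148). Aasdhppt, which loads fatty acid synthase with its cofactor, had 0.00 (SE 0.13, adjusted p = 0.987). All p-values in this paragraph come from edgeR.

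Of 17 genes that process SREBP-1, hold it back, induce it or act beside it, 3 rose and 4 fell, with a median of -0.01. The share that rose was near that of all genes, and the share that fell was above the 13.3% of all genes. Insig1, which retains the precursor in the endoplasmic reticulum and is itself a target, rose by 1.89 on the log2 scale (SE 0.26, adjusted p = 0.000141 by edgeR), from 11.8 to 29.8 RPKM in controls to 39.7 to 92.8 RPKM. Mbtps1, the site-1 protease, had a log2 fold change of 0.50 (SE 0.07, adjusted p = 0.000184) and Srebf2 one of 1.05 (SE 0.17, adjusted p = 0.000449), while Mbtps2, the site-2 protease, had 0.00 (SE 0.13, adjusted p = 0.981). Nfya, a subunit of NF-Y, had a mean of 5.51 RPKM in control livers and 2.95 RPKM in pre-metastatic livers. All 9 pre-metastatic livers lay below every control for Nfya. Insig2, a relative of Insig1, had means of 146 and 64.7 RPKM in the same order, with overlap. Nfyb and Nfyc, the other NF-Y subunits, also overlapped between the groups. Whether lower Nfya bears on the promoters shown was not tested. Among genes of insulin signalling, Akt2 (log2 fold change 0.31, adjusted p = 0.0179 by edgeR) was called. Its call was lost with scaling to total counts (adjusted p = 0.0753) and without control C5 (adjusted p = 0.0533), both by edgeR. Foxo1 had a log2 fold change of 0.01 (adjusted p = 0.965 by edgeR).

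Of 11 ChREBP partners and glucose-responsive targets, 6 rose and 1 fell, with a median of 0.94. Pklr, liver pyruvate kinase, rose by 2.86 on the log2 scale (SE 0.36, adjusted p = 8.11e-05 by edgeR), from 12.9 to 24.2 RPKM in controls to 52.0 to 184 RPKM. Khk, which phosphorylates fructose, rose by 1.09 (SE 0.13, adjusted p = 5.32e-05) and Tkfc, a later step of fructose use, by 1.33 (SE 0.33, adjusted p = 0.00732), while Mlxip had -0.09 (adjusted p = 0.69).

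Of 10 genes of malonyl-CoA use and the AMP-activated kinase, none rose and 3 fell, with a median of -0.33; 0 were higher at an unadjusted p under 0.05 by edgeR or when called by DESeq2. Cpt1b, a carnitine transferase that malonyl-CoA inhibits, fell by 2.26 on the log2 scale (SE 0.43, adjusted p = 0.0012 by edgeR). Its level was low, at 0.950 to 3.11 RPKM in control livers and 0.0539 to 0.767 RPKM in pre-metastatic livers. Its relative Cpt1a stood far higher, at 94.7 to 168 RPKM in control livers and 48.2 to 135 RPKM in pre-metastatic livers, with overlap. Stk11, a kinase that activates AMP-activated kinase, fell by 0.40 (adjusted p = 0.00161), Mlycd, which removes malonyl-CoA, by 0.37 (adjusted p = 0.00286), and Prkaa1, a catalytic subunit of the kinase, had 0.04 (adjusted p = 0.829). Of 7 genes that put fatty acid into glycerolipid, 2 rose, Acsl3 (log2 fold change 2.23, SE 0.28, adjusted p = 7.14e-05) and Acsl5 (0.75, SE 0.19, adjusted p = 0.0077), both acyl-CoA synthetases. Dgat1, which makes triglyceride, fell by 0.9997 (SE 0.09, adjusted p = 7.71e-06), and Dgat2 had 0.03 (adjusted p = 0.911).

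Of 12 genes that rise in a fasted mouse liver, 2 rose and 4 fell, with a median of -0.76. Cyp4a10 and Cyp4a14, fatty acid omega-hydroxylases, had log2 fold changes of -7.06 and -7.40 (adjusted p = 6.09e-06 and 4.46e-05 by edgeR), from 286 to 900 RPKM and from 356 to 1110 RPKM in controls to at most 11.2 and 15.2 RPKM. Acot1, an acyl-CoA thioesterase, fell by 3.62 (SE 0.43, adjusted p = 5.25e-05). Fgf21, a hormone of the fasted liver, had 0.09 (SE 0.89, adjusted p = 0.952), with 1 pre-metastatic liver, M7, at 30.1 RPKM. By DESeq2 its log2 fold change was -1.28 (adjusted p = 0.0398). The 2 that rose are not among the genes named so far. G6pc had a median of 17.5 RPKM in control livers and 54.3 RPKM in pre-metastatic livers. Igfbp1 ran from 0.721 to 8.83 RPKM in control livers and from 4.35 to 49.2 RPKM in pre-metastatic livers. The ranges of both genes overlapped between the groups.

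Markers of other cells moved in the same comparison. Of the leukocyte markers 6 of 7 tested rose and of the neutrophil markers 5 of 6, with sums of 4.85 to 11.8 RPKM against 12.5 to 34.0 RPKM, and of 6.45 to 17.9 RPKM against 7.26 to 119 RPKM. Of 8 adipocyte markers 4 were tested and 1 fell. Their sum, mostly Pck1, which hepatocytes also express, was 221 to 1048 RPKM in control and 97.2 to 629 RPKM in pre-metastatic livers. Adipoq, which defines fat cells, lay at 2.04 RPKM in C1, 2.65 RPKM in C6 and 1.49 RPKM in M5 and at most 0.249 RPKM in the other livers. The part of other cells in the changes above was not tested.

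Primary tumors and pre-metastatic livers of the same mice were compared next, and the answer for several genes depended on how libraries were scaled. With TMM all 10 genes were called lower in tumors, whereas with scaling to total counts 7 were called lower, Acly was called higher, and Fasn and Acaca were not called. TMM called 39.5% of the 19749 genes tested lower and 43.8% higher, against 21.3% and 67.6% with total counts, and the median log2 fold change over all genes moved from 0.13 to 1.30. RPKM follows total counts.

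Thrsp and Mlxipl were lower in tumors than in any liver under either scaling. Thrsp had 0 to 36 counts in a tumor, at most 0.60 RPKM, and its log2 fold change was -11.30 with TMM and -10.12 with total counts (adjusted p = 7.44e-10 and 1.06e-09 by edgeR). The 0 counts in tumor M8 allow up to 3 counts, or 0.052 RPKM. The 2 highest tumors, M10 and M12, with 34 and 36 counts, were the 2 with the most Alb, and without them the log2 fold change was -12.63. Mlxipl stood at 0.247 to 1.29 RPKM in tumors, median 0.527, and its log2 fold change was -6.25 with TMM and -5.10 with total counts (adjusted p = 4.11e-13 and 3.74e-12 by edgeR).

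Acacb, at 0.795 to 2.53 RPKM in tumors, also lay below every pre-metastatic liver, with a log2 fold change of -3.13 by TMM and -1.95 by total counts. The share of all genes tested that lay below every pre-metastatic liver in tumors is not given here. Srebf1 had 21.1 to 29.0 RPKM in tumors, and 7 of 9 tumors were below the lowest pre-metastatic liver (log2 fold change -2.03 and -0.86). Scd1 was at 50.9 to 91.7 RPKM (-2.61 and -1.41), Elovl6 at 2.25 to 7.26 RPKM (-2.25 and -1.04) and Me1 at 8.20 to 12.6 RPKM (-1.73 and -0.58). The largest adjusted p of these 5 genes by edgeR was 6.38e-06 with TMM and 0.0101 with total counts. In an exact rank-sum test on RPKM Scd1 and Me1 were not called (adjusted p = 0.0566 and 0.124).

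Fasn and Acaca overlapped between the 2 tissues in RPKM. Fasn had 26.6 to 41.4 RPKM in tumors, with a median of 33.5 beside 27.9 RPKM in the livers (log2 fold change -1.58 with TMM, adjusted p = 0.000237, and -0.36 with total counts, adjusted p = 0.272, by edgeR). Acaca had 6.17 to 10.1 RPKM (-1.43, adjusted p = 2.84e-06, and -0.22, adjusted p = 0.269). Acly, at 65.8 to 75.1 RPKM against a liver median of 41.0 RPKM, fell by 0.68 with TMM (adjusted p = 0.000281) and had 0.52 with total counts (adjusted p = 0.00154).

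The ratio of the highest to the lowest library was smaller in tumors than in pre-metastatic livers for 8 of the 10 genes; Mlxipl went the other way, at 5.21 against 2.25, and Thrsp has no such ratio in tumors. The highest tumor exceeded the lowest 1.14-fold for Acly, 1.56-fold for Fasn and 1.80-fold for Scd1, against 2.26-fold, 6.38-fold and 8.93-fold among the pre-metastatic livers. By median level Acly, Scd1 and Fasn came first in tumors, at 69.8, 66.5 and 33.5 RPKM, and Acly and Scd1 differed by less than the spread of Scd1 between tumors. In the pre-metastatic livers the first 3 were Scd1, Thrsp and Srebf1, at 120, 67.4 and 44.4 RPKM, with overlapping ranges. In control livers they were Acly, Me1 and Mlxipl, at 25.3, 16.5 and 15.9 RPKM, of which Me1 and Mlxipl overlapped.

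Of the other lists in this comparison, 15 of 22 further synthesis genes were called lower with TMM and 7 higher, 9 of 11 ChREBP partners and targets lower and 2 higher, 6 of 7 glycerolipid genes lower, 8 of 17 SREBP-1 control genes lower and 5 higher, 6 of 10 malonyl-CoA genes lower and 2 higher, and 10 of 12 fasting genes lower, beside 39.5% lower and 43.8% higher over all genes tested. All 8 hepatocyte markers were lower, with a median log2 fold change of -10.93. The SREBP-1 inducers Nr1h3 (LXR alpha) and Rxra had log2 fold changes of -6.21 and -3.78 with TMM and -5.04 and -2.61 with total counts. Slc25a1 had -3.05 and -1.87, and Usf1, which binds the Fasn promoter, had 0.00 and 1.18.

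Against control livers, TMM called 4 of the 10 genes higher in tumors and 5 lower, beside 44.2% and 38.1% of the 19320 genes tested. Scaling to total counts called 5 higher and 4 lower, beside 66.6% and 21.4%, and moved the median of all genes from 0.18 to 1.26. These tumors also enter the comparison above. Scd1 had a log2 fold change of 2.74 with TMM and 3.82 with total counts (adjusted p = 9.7e-07 and 2.5e-08 by edgeR), Fasn 0.84 and 1.92 (0.00102 and 2.77e-07), Acly 0.37 and 1.46 (0.00142 and 2.94e-10) and Acaca 0.25 and 1.34 (0.0236 and 2.65e-09). In RPKM, which follows total counts, all 9 tumors exceeded all 5 control livers for these 4 genes. The share of all genes tested that did so is not given here, and scaling to total counts called 66.6% of them higher.

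Thrsp, Mlxipl, Acacb and Me1 were lower than in control livers under both scalings, with log2 fold changes of -6.73, -5.71, -2.54 and -1.58 with TMM and -5.67, -4.64, -1.44 and -0.49 with total counts (largest adjusted p = 0.000439 by edgeR). Elovl6 was called lower with TMM (-0.74, adjusted p = 0.00472) and had the opposite sign with total counts (0.34, adjusted p = 0.156). Srebf1 was not called with TMM (0.06, adjusted p = 0.796) and was called higher with total counts (1.13, adjusted p = 0.000107) and, with TMM, without control C5 (0.40, adjusted p = 0.00172). That control held 21.9 RPKM of Srebf1, within the tumor range of 21.1 to 29.0 RPKM.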

How the data were processed

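RNA was purified with oligo(dT) beads and made into libraries with a NEBNext Ultra kit, per the labels. Per the submitters' processing notes, the tools were HISAT, HISAT2 and HTSeq 0.6.0 on build mm10; their settings, the strand option and the annotation are not given in the sources used here. The authors deposited 1 table of 48897 genes with raw read counts and RPKM for 23 libraries. The RPKM values were recomputed from the deposited counts and lengths to within a relative error of 1.75e-06, so they are scaled to total counts. Lines of the 2 symbols that appear more than once were summed.

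Counts were tested with edgeR 4.0.16 (R 4.3.3; quasi-likelihood, TMM, at least 10 counts in at least 5 libraries, Benjamini-Hochberg over all genes tested, two-sided), each fit holding only the groups compared; printed SEs are the log2 fold change over the root of F. Python 3.11.15 with scipy 1.17.1 gave the exact tests. Scripts were tested on simulated data. Alternatives were RLE, upper-quartile and total-count scaling, no filter, DESeq2 1.42.0, limma-voom (limma 3.58.1), an exact rank-sum test on RPKM as in the study's methods, leaving out libraries, clock phase, and the mouse as a block. RefSeq promoters were matched by symbol, 9 of 10 genes.

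The tumor and liver of a mouse come from the same animal, which pairs them; after centring each tissue on its mean, the r between both tissues of a mouse averaged 0.085 over 12748 genes (from -0.044 to 0.27), against -0.011 between different mice. No 2 libraries of a group agreed within sampling noise. Animals are the replicates, with 1 library per tissue.

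The genes and the lists were chosen with earlier results of these data known. Named are all 10 genes, from each further list the up to 3 called genes with the smallest adjusted p and the gene with the largest, the genes of the ratios, and the 5 most alike to Fasn and to Srebf1. Outside this rule, liver levels of Nfya, Insig2, Cpt1a, G6pc and Igfbp1, and the overlap of Nfyb and Nfyc, were added after the data were seen. In the tumor comparisons the lists are given mainly as counts. Part of the insulin signalling list is not reported here, so its counts and median are left out and the genes named from it are not its full selection.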

Additional observations from a re-analysis of the deposited data

Results flagged for a closer look

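A library counts as standing apart here when its gap to the nearest other library of its group exceeds the 95% critical share of the group's range in Dixon's test, which chance reaches in about 1 in 20 groups. Among the 10 genes, Srebf1 in control liver C5 (21.9 RPKM) and Acacb in primary tumor M4 (2.53 RPKM) stood apart on the high side. Of the other named genes, M4 was also the highest tumor for Slc25a1 (38.8 RPKM) and Cpt1b (1.59 RPKM). Insig1 was highest in tumor M7 (42.5 RPKM) and Akt2 in tumor M2 (34.3 RPKM). In pre-metastatic liver M7, Cyp4a14 (15.2 RPKM) and Fgf21 (30.1 RPKM) were far above the other 8 livers. In all, 8 of the gene and group pairs screened were apart in this way, out of 117. Explanations were not tested.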

How the results depend on the processing

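The count of the 10 genes called moved by more than 1.5 times in 1 setting: the exact rank-sum test on RPKM called 6 between tumor and pre-metastatic liver, in place of 10. Signs turned for Acly between tumor and pre-metastatic liver, to 0.52 with total-count scaling and 0.55 (a difference in mean log2(RPKM + 1)) in the rank-sum test, and for Elovl6 between tumor and control liver, to 0.34 and 0.23. Both settings scale to total counts. The share of calls that were higher moved from 57.1% to 46.0% with total counts between livers (2377 higher and 2796 lower), from 52.5% to 76.0% between tumor and pre-metastatic liver, and from 53.7% to 75.7% between tumor and control liver. Scaling to total counts and the choices of tumors and phases for the tumor comparison were added after the data were seen. Of 650 values of single genes under the alternatives, 626 kept their sign and side of the threshold, 16 lost the call, 4 gained it and 4 turned. All 208 values of the ratios kept both, but no setting for the ratios paired tumor and liver of a mouse. Among the lost calls, Acaca between tumor and control liver missed the threshold with RLE factors (adjusted p = 0.0564), with DESeq2 (0.0594) and without controls C4, C5 and C7 (0.0671, 0.051 and 0.0755). With the mouse as a replicate block, which pairs tumor and liver, 16329 genes were called in place of 16457 and all 10 genes were again lower, so no call among them changed. At these depths 9 of the 10 genes had at least 60 counts in every library, and Thrsp in tumors, at 0 to 36 counts, is set by few reads.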
